A study of Mus musculus with 4 samples.

Results

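Compact-type ventricular cardiomyocytes of the mouse embryonic heart were described here from single-cell RNA sequencing of dissociated ventricles. A barcode counted as a cardiomyocyte when it held at least 1000 genes, less than 10% mitochondrial UMIs (unique molecular identifiers, each standing for 1 captured RNA molecule) and at least 4% of its UMIs from Tnnt2, Tnni1, Tnnc1, Actc1, Myl3, Myl4, Myl7 and Myh7. It counted as compact-type when the summed UMIs of Mb, Tnnt1, Tcea3 and Hey2 reached 3 and were more than 2 times those of the trabecular genes Cited1, Gtsf1, Irx3 and Mt3. Barcodes with more than 2 UMIs of the mitotic genes Ube2c, Ccnb1 and Cdc20, or of the atrial and sinus genes Sln, Shox2 and Cacna2d2, were left out. This gave 3961 compact-type cells among 11852 cardiomyocytes and 61172 barcodes, with 1113, 844, 1246 and 758 in the 4 libraries. Wherever 4 values follow each other they stand in the order het 1, het 2, KO 1, KO 2. The mirror rule for trabecular genes gave 1321 trabecular-type cells, and 1582 cardiomyocytes within the same limits met neither rule.

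All embryos carried the Cdh5(Pac)-CreER transgene, a tamoxifen-inducible Cre recombinase driven by an endothelial promoter, and 1 copy of the Rosa26 mTmG reporter, in which Cre replaces red with green membrane fluorescence (EGFP). Het libraries came from Gata4fl/+ embryos, with 1 floxed allele, and KO libraries from Gata4fl/fl embryos, with 2. Both groups received tamoxifen at E9.5 (embryonic day 9.5) and were collected at E12.5, so the controls share Cre, reporter and tamoxifen and can themselves lose 1 Gata4 allele where Cre acts. There were 2 libraries per genotype, and whether embryos were pooled for a library is not given in the sources used here. The p-values therefore measure only the spread between these libraries, which may be technical.

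The ventricular wall at this stage has an outer compact layer, which divides fast and thickens into the definitive wall, and an inner layer of trabeculae, muscular ridges covered by endocardium that mature earlier and conduct the impulse. Endocardial cells signal to both layers, through neuregulin, Notch ligands and BMP factors among others. Hey2, a Notch-pathway repressor of the hairy family, is a known gene of the compact layer. Nppa, the atrial natriuretic peptide precursor, and Gja5, a gap junction protein of the conduction system, are known genes of the trabeculae. Gata4 is a zinc finger transcription factor present in cardiomyocytes, endocardium and other cells of the heart. The Cre used here is an endothelial one, so the genotype comparison asks what the cardiomyocytes looked like when the deletion was directed at another cell type.

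The 4 deposited matrices held 137890971 to 190207638 UMIs over 8597 to 23459 barcodes, while the labels give 10K cells as the input to each library. Het 1 had the most barcodes, and its shallowest barcode held 1841 UMIs, against 500 to 521 in the other libraries. Pairs of libraries shared at most 103 barcodes, and of the compact-type barcodes 1 was shared between het 1 and het 2 and 1 between het 1 and KO 1. The compact-type cells held 6804453, 10407461, 8252319 and 8264219 UMIs, with medians per cell of 4433, 7579, 4873 and 7484 UMIs. Ddx3y, a Y-linked gene, had 21.6, 28.3 and 13.2 CPM (its UMI count scaled to the usual common total) in compact-type cells of het 1, het 2 and KO 1 and no UMI in KO 2, where 3 UMIs would have been 0.363 CPM. The X-inactivation RNA Xist was present in all 4, at 145, 116, 117 and 180 CPM. KO 2 thus lacked Y-linked RNA and the other libraries held both, and the part of this difference in the genotype comparison was not tested.

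The label was checked against its 5 markers, of which 4 also chose the cells, so that their excess over trabecular-type cells is given as a description. Tnnt1, the slow skeletal troponin T, stood at 2648, 2921, 2618 and 3543 CPM in compact-type cells, a log2 difference from trabecular-type cells of 3.93, 4.14, 4.31 and 4.75. Mb, myoglobin, stood at 1069, 993, 1200 and 1409 CPM, with log2 differences of 2.27, 2.33, 2.37 and 2.52. Hey2 stood at 135, 119, 151 and 113 CPM, with log2 differences of 1.58, 2.01, 1.54 and 1.61. For Tcea3, a transcription elongation factor of the TFIIS family, the log2 differences were smaller, at 0.65, 1.09, 1.33 and 1.46. Myl2, the ventricular myosin regulatory light chain and the marker the rule did not use, went against the label: it was lower in compact-type than in trabecular-type cells in all 4 libraries, by log2 values of -0.37, -0.39, -0.19 and -0.20. It was abundant in both, with a UMI in 99.9% or more of compact-type cells. The 12 other compact-zone genes abundant enough to be compared did not single out these cells either, with 3 higher and 5 lower in every library and a median log2 difference of -0.10. Of 9 trabecular markers outside the rule, 7 were lower in every library and 1 higher (median log2 -1.89), where 21.9% of all compared genes were lower. The rule chose the cells on this contrast, so the count is a description. The name compact-type therefore rests on the genes of the rule and on low levels of other trabecular markers, not on other compact-zone genes. On GRCm38 Tnnt1 lies on chromosome 7 (4504570 to 4516382), Mb on chromosome 15 (77015487 to 77050670), Tcea3 on chromosome 4 (136247729 to 136274898) and Hey2 on chromosome 10 (30832359 to 30842801), per GENCODE M21.

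Few cells lay at the edge of the rule for the compact genes, and many at the edge of the cardiomyocyte limit. Compact-type cells with exactly 3 UMIs of the 4 compact genes numbered 71, 40, 63 and 32, and cells with 2 UMIs that otherwise met the rule numbered 36, 18, 55 and 12. The median compact-type cell held 12, 30, 17 and 32 UMIs of these genes. Cells with 4% to 5% cardiomyocyte UMIs numbered 451, 196, 419 and 197, and barcodes just outside, with 3% to 4%, numbered 808, 45, 122 and 61. Het 1 thus had many more barcodes just under the limit than the other libraries.

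Endothelial, mesenchymal, epicardial and macrophage markers took small shares of UMIs in the compact-type cells. Endothelial, mesenchymal, macrophage and erythroid markers were highest in het 1. The 16 endothelial markers took 0.0124%, 0.00465%, 0.00734% and 0.00341% of UMIs, against 0.627% to 0.715% in endothelial reference cells of the same libraries (at least 5 UMIs of Cdh5, Pecam1, Kdr and Emcn and cardiomyocyte genes under 1% of UMIs). The 12 mesenchymal markers took 0.0231%, 0.00751%, 0.0107% and 0.00641%, and the 10 macrophage markers 0.00132% to 0.00930%. The 10 epicardial markers took 0.0195%, 0.0186%, 0.0170% and 0.0204%, highest in KO 2. They took less in endothelial reference cells (0.00414% to 0.00779%) and in trabecular-type cells (0.00595% to 0.0127%). Erythroid genes, mostly globins, took 1.51%, 0.509%, 0.817% and 0.192%. None of the endothelial, mesenchymal, epicardial or erythroid markers was at 0 in any library, while Foxd3 and Sox10, defining genes of neural crest and Schwann cells, were at 0 in all 4. Scrublet, a caller of doublets (2 cells under 1 barcode), scored 30, 2, 5 and 0 compact-type cells at 0.35 or more, and these were kept in the main values. Cells with at least 3 UMIs of Cdh5, Pecam1, Kdr and Emcn or at least 2% globin UMIs are here called mixed. They numbered 235, 15, 82 and 2 of the 1113, 844, 1246 and 758 compact-type cells and were also kept.

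The compact-type cells were not uniform: most were either barcodes almost without Malat1 and mitochondrial RNA or barcodes with both. Malat1 is a nuclear long noncoding RNA, and mitochondrial RNA is held in the organelle. By library, 44.0%, 53.4%, 55.1% and 73.4% of the cells held under 0.1% Malat1 and under 1.5% mitochondrial UMIs, here called the low stratum. A further 39.4%, 30.8%, 14.2% and 9.76% reached both limits, here called the high stratum. The remaining cells, whose share was largest in KO 1, lay in neither stratum, and values within the strata leave them out. These limits were set after the distributions were seen. The high stratum took a larger share in both het libraries (35.1% ± 6.11, SD, n = 2) than in both KO libraries (12.0% ± 3.14), a difference of -23.1 percentage points (two-sided exact permutation p = 0.333, the smallest that 2 libraries against 2 allow). The low stratum differed by 15.5 percentage points the other way (exact permutation p = 0.333).

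Other cells of the same libraries differed in how they split. Endothelial reference cells were in the low stratum in 0.640% to 4.97% of cases and in the high stratum in 84.6% to 92.3%. Trabecular-type cells were in the low stratum in 58.6%, 72.0%, 60.8% and 73.5% of cases, and in the high stratum in 27.3%, 12.8%, 11.5% and 8.71%. Within compact-type cells, the high stratum had a median of 3776, 24104, 10806 and 33012 UMIs and the low stratum one of 5361, 5796, 5365 and 6922. High-stratum cells were thus deeper than low-stratum cells in het 2, KO 1 and KO 2 and shallower in het 1. They supplied 39.6%, 62.8%, 27.3% and 29.0% of all UMIs of the compact-type sums, so the sums mix the strata in different proportions.

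**Figure D1:**
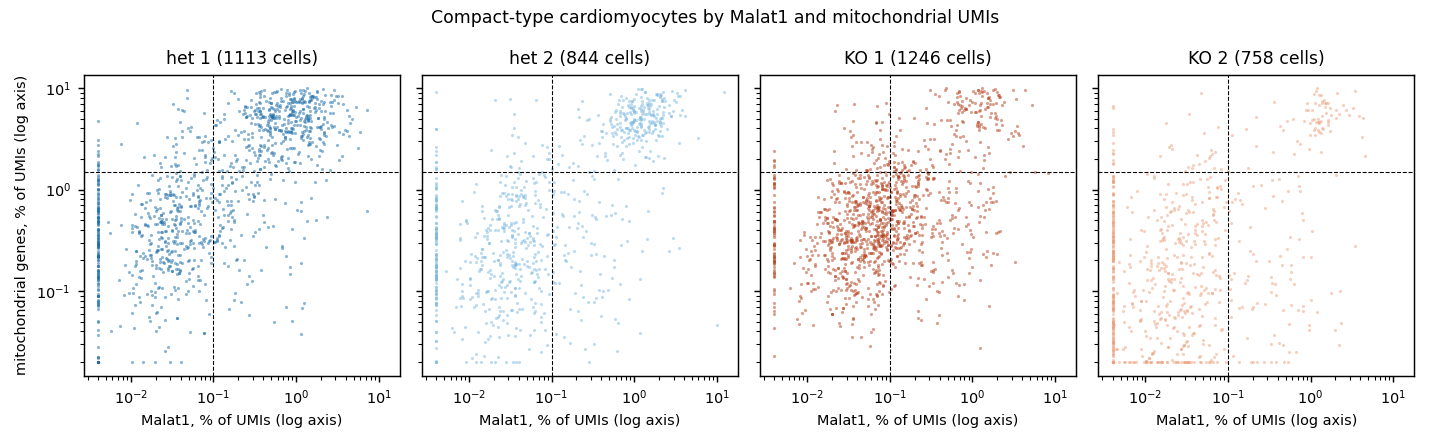
Each point is 1 compact-type cell, with Malat1 (horizontal, log axis) and mitochondrial genes (vertical, log axis) as a percentage of its UMIs, in 1 panel per library. Dashed lines mark 0.1% and 1.5%, and cells with no such UMI are drawn at the left or lower edge. The upper right group holds 39.4%, 30.8%, 14.2% and 9.76% of the cells from the left panel to the right one.

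The strata differed in what kinds of RNA they held. Of 5487 genes abundant enough to be compared, 1070 (19.5%) were at least 2-fold higher in the high stratum in every library and 4 (0.0729%) at least 2-fold lower. All 16 matrix and adhesion genes compared were higher in the high stratum in every library, as were 2624 of the 5487 genes. The matrix and adhesion genes had a median log2 difference of 3.92 and the calcium and excitation genes one of 2.44. The median over all compared genes was 0.15. Ttn, the giant sarcomeric spring protein, was higher by 6.13. Other groups lay the other way, with medians of -0.22 for sarcomere genes, -0.30 for oxidative phosphorylation and -0.41 for S phase genes. Among the 4 libraries' high strata, the summed markers of other cells were highest in het 1 for each list. There endothelial markers took 0.0208%, mesenchymal markers 0.0429% and erythroid markers 2.57% of UMIs, against at most 0.00706%, 0.0130% and 0.672% in the other libraries. All 4 genes at least 2-fold lower in every library were named after their values were seen: H3c3, H3c6 and H2ac8, which encode replication histones, and the centromere gene Cenps. The cap on mitotic UMIs in the rule acted at any depth, and its part in the S phase and histone values was not tested. The 14 cardiomyocyte identity genes took 6.27% to 6.58% of UMIs in the low stratum and 6.56% to 7.75% in the high stratum. The rule required UMIs of 8 of these genes, so their presence in both strata was set by the choice of cells.

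Spread among the compact-type cells was largest for Ttn, Malat1 and mitochondrial RNA. With each cell thinned to 3000 UMIs, which left 852, 755, 1018 and 704 cells, the variance over the mean (Fano factor) of 1166 genes had a median of 1.06 for the lowest of the 4 libraries, close to the value of counting noise. Ttn reached 40.8 to 55.9, Malat1 37.7 to 47.2 and mt-Rnr2, the mitochondrial large ribosomal RNA, 30.1 to 37.1. Tnnt1, which the rule used, reached 8.93 to 9.54. Other contractile genes lay below Ttn: Myl7, the atrial myosin light chain, had 5.16, 9.58 and 8.39 in het 1, het 2 and KO 1 and its highest value in KO 2, Myh7, the slow myosin heavy chain, 6.17 to 10.2, Actc1, the cardiac actin, 6.40 to 7.21, and Acta2, smooth muscle actin, 4.73 to 5.86. The rule used Myl7, Myh7 and Actc1. Hist1h2ap, a replication histone made in S phase, had 5.86 to 14.5.

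Outside the genes of the rule, the compact-type cells stood apart from trabecular-type cells by a short list of genes. Of 4876 genes with enough RNA in either class, 32 (0.656%) were at least 2-fold higher in compact-type cells in every library and 42 (0.861%) at least 2-fold lower. No test was made, since the rule chose the cells on this contrast. Log2 differences are those of CPM plus 1. Chosen on the smallest difference over the 4 libraries, the leading genes that were higher included the actin organiser Fmn1, the intermediate filament gene Vim, the mitophagy receptor Bnip3 and the metallothionein Mt1.

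Of 5 genes of the left-right ventricle list compared, 2 were higher and 3 lower in compact-type cells in every library. Hand1, a factor of the left ventricle, was lower in compact-type cells (log2 -2.08, -2.45, -1.97 and -1.70), as was Tbx5 (mean -1.35). Hand2, a factor of the right ventricle and outflow tract, was higher (0.40, 0.60, 0.75 and 0.77). The 2 classes thus differed in factors of ventricle side. The part of ventricle side in the contrast of compact-type with trabecular-type cells was not tested.

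Metabolic genes and genes of matrix enzymes were among the leading genes that were higher. Bnip3, which is induced by low oxygen, stood at 352, 342, 522 and 526 CPM in compact-type cells against 103, 75.6, 168 and 129 CPM in trabecular-type cells, and every compact-type value exceeded every trabecular-type one. Car2, carbonic anhydrase 2, stood at 45.8, 46.3, 65.4 and 74.5 CPM against 15.7, 6.04, 23.2 and 12.0 CPM. Mt1 had log2 differences of 1.43 to 1.60, Upp1, uridine phosphorylase, 1.55 to 2.15, and Abat, a GABA transaminase, 1.30 to 2.17. Spint2, a serine protease inhibitor, had 1.62 to 2.61, and Ppp1r1b, a protein phosphatase inhibitor, 1.68 to 2.17. Vim had 1.31 to 1.78 and Gap43, a membrane protein of growing axons, 1.47 to 2.12. These differences were of similar size in the low stratum, where the means were 1.89 for Bnip3, 2.15 for Car2, 2.28 for Spint2 and 1.57 for Vim.

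For 4 of the leading genes that were higher the low stratum did not carry the difference in every library. Loxl2 and Plod2, which modify collagen lysines, had differences of 1.34 to 2.20 and 1.32 to 2.75 over all cells, but means of 0.48 and 0.51 in the low stratum, with the lowest library at -0.56 and -0.07. Tgfb2, a growth factor ligand, had 1.26 to 1.65 over all cells and a mean of 0.30 in the low stratum, with a lowest library of -0.52. Flrt2, a membrane protein of cell guidance, had 2.06 to 2.50 over all cells and a mean of 1.35 in the low stratum, with a lowest library of -0.11. In the high stratum their means were 1.59, 1.82, 1.88 and 2.22.

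The genes that were lower in compact-type cells were larger in effect. Nppa stood at 262, 210, 219 and 118 CPM in compact-type cells, against 2988, 4451, 3727 and 5378 CPM in trabecular-type cells, log2 differences of -5.50 to -3.51. Nppa UMIs were seen in 45.4%, 33.4%, 47.6% and 34.0% of compact-type cells and in 44.6%, 27.1%, 46.4% and 33.1% of endothelial reference cells of the same libraries. The endothelial cells were deeper, with medians of 8388, 20660, 15638 and 28131 UMIs against 4433, 7579, 4873 and 7484 in compact-type cells. Thinned to 3000 UMIs, the shares were 29.9%, 17.7%, 32.3% and 17.5% in compact-type cells and 4.51% to 18.7% in endothelial reference cells. Nppa lies on chromosome 4 of GRCm38 (148000722 to 148002079), per GENCODE M21. Cdo1, cysteine dioxygenase, stood at 2.58, 1.12, 1.96 and 0.908 CPM against 94.0, 70.4, 72.1 and 49.9 CPM.

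Several of the other genes that were lower act in guidance, conduction or patterning. Slit2 and Ntn1, secreted guidance proteins, had log2 differences of -5.64 to -2.70 and -2.65 to -1.83. Gja5 had -2.90 to -1.91, and Irx5, a homeobox factor of the same cluster as Irx3 of the rule, -4.58 to -3.25. Crnde, a noncoding RNA next to Irx5, had -4.06 to -3.03. Myl1, a myosin light chain of skeletal muscle, had -4.70 to -3.32, and Mest, an imprinted gene, -3.75 to -2.51. Slc6a6, a taurine transporter, had -3.29 to -2.13. All 15 leading genes that were lower had means of -1.70 or lower in the low stratum too. Slit2 moved most between the strata, with means of -2.20 (low) and -4.99 (high).

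**Figure D2:**
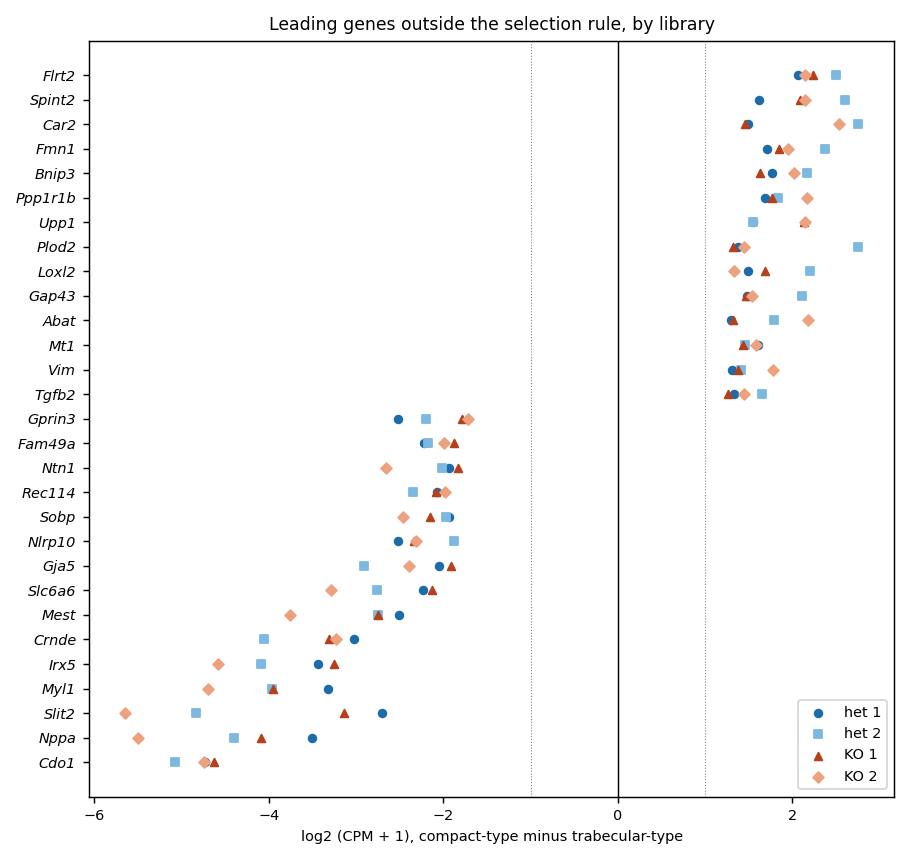
Log2 difference of CPM plus 1 between compact-type and trabecular-type cells (horizontal) for leading genes in each direction (rows), with 1 symbol per library; dotted lines mark a 2-fold difference. Flrt2 lies at 2.06 to 2.50 in the 4 libraries and Nppa at -5.50 to -3.51.

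Over whole pathways, S phase and glycolysis genes were higher in compact-type cells. Of 27 S phase genes compared, 26 were higher than in trabecular-type cells in every library (median log2 0.54), where 31.0% of all compared genes were higher in every library and 21.9% lower. Rrm2, a ribonucleotide reductase subunit, was higher by 0.98 to 1.36, and Pcna, the replication clamp, by 0.48, 0.32, 0.55 and 0.68. In the low stratum 25 of the 27 were higher in every library (median 0.61) and in the high stratum 19 (median 0.54). Genes of mitosis were limited by the rule and are not read. Of 23 glycolysis and hypoxia genes, 17 were higher in every library and 2 lower (median 0.59), and 14 were higher in every library in the low stratum. Pgk1, phosphoglycerate kinase, was higher by 1.01, 1.07, 0.96 and 1.13, Tpi1, triosephosphate isomerase, by 0.83, 0.93, 0.71 and 0.91, and Ldha, lactate dehydrogenase, by 0.87, 0.80, 0.70 and 0.75.

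Contractile genes did not show such an excess, and oxidative phosphorylation genes showed one in the low stratum only. Of 29 sarcomere genes compared, 6 were higher in every library and 14 lower (median -0.14). Actc1 and Tnnt2 are not among the 29, since the rule used them, and are given as a description. Actc1 was higher by 0.12, 0.18, 0.11 and 0.12, and Tnnt2, cardiac troponin T, was lower by log2 -0.34, -0.32, -0.15 and -0.19. Of 55 oxidative phosphorylation genes, 9 were higher and 15 lower (median -0.01), and in the low stratum 33 were higher and 3 lower (median 0.12). Of all 4876 compared genes, 1565 were higher and 854 lower in the low stratum (median 0.07). In the high stratum 5 of the 55 were higher and 9 lower (median -0.04). Cox8b, a muscle subunit of cytochrome oxidase, was lower by log2 -1.10, -1.55, -0.77 and -1.24. Of 23 fatty acid metabolism genes, 3 were higher and 11 lower, with Acadl, long-chain acyl-CoA dehydrogenase, lower by log2 -0.79, -0.65, -0.64 and -0.79. Of 28 cardiac transcription factors and cofactors, 14 were higher and 9 lower. Lbh was higher by 0.43, 0.58, 0.42 and 0.45, and Hopx, a homeodomain cofactor of cardiomyocyte maturation, was lower by log2 -0.47, -0.67, -0.25 and -0.67.

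Growth factor genes were counted in the same way. Of 10 FGF and IGF signalling genes compared, 7 were higher in every library and 2 lower (median 0.57), with 5 and 2 in the low stratum (median 0.26) and 6 and 2 in the high stratum (median 0.41). H19, an imprinted noncoding RNA, was higher by 1.10, 0.93, 1.14 and 1.29, and Grb10, an adaptor of the insulin receptor, by 0.60, 0.67, 0.55 and 0.54. Of 9 BMP and TGF-beta genes, 5 were higher and 0 lower (median 0.30), with 2 and 0 in the low stratum (median 0.00) and 5 and 1 in the high stratum (median 0.26). Id2, a target of BMP signalling, was higher by 1.21 to 2.28. Mdk, the growth factor midkine, was higher by 0.93 to 1.39.

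The share of cardiomyocytes that were compact-type overlapped between the genotypes. By library it was 34.1%, 31.3%, 34.5% and 33.2%. Their 95% Wilson intervals, which cover counting error only, ran from 32.5% to 35.8%, from 29.6% to 33.1%, from 33.0% to 36.1% and from 31.3% to 35.2%. The means were 32.7% ± 1.98 (SD, n = 2) and 33.9% ± 0.929 (SD, n = 2), a difference of 1.15 percentage points (two-sided exact permutation p = 0.667), and KO 2 lay between the het libraries. The direction depended on the denominator and on depth. Over cardiomyocytes within the mitotic and atrial limits the difference was -1.98 (exact permutation p = 0.667), and with each cell thinned to 5000 UMIs it was -1.60 (exact permutation p = 1). With at least 5 UMIs of the compact genes in place of 3, both KO libraries lay above both het libraries, at 31.1% ± 0.298 against 29.6% ± 0.840 (SD, n = 2 each), a difference of 1.53 (exact permutation p = 0.333, the smallest possible here). Without het 2 the main difference was -0.251.

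Set against trabecular-type cells alone, compact-type cells took 76.2%, 76.7%, 73.4% and 74.2% of both types together. Both het libraries were thus above both KO libraries, by 2.64 percentage points in the mean (a KO minus het difference of -2.64, exact permutation p = 0.333, the smallest possible here). The low-stratum share, higher by 15.5 percentage points in KO among compact-type cells, was higher by 1.86 among trabecular-type cells. Within the low stratum compact-type cells took 70.6%, 70.9%, 71.4% and 74.1% of both types together. Within the high stratum they took 82.2%, 88.7%, 77.3% and 76.3%. Both KO libraries thus lay above both het libraries in the low stratum and below them in the high stratum. The part of the strata in the share over all cells was not tested.

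**Figure D3:**
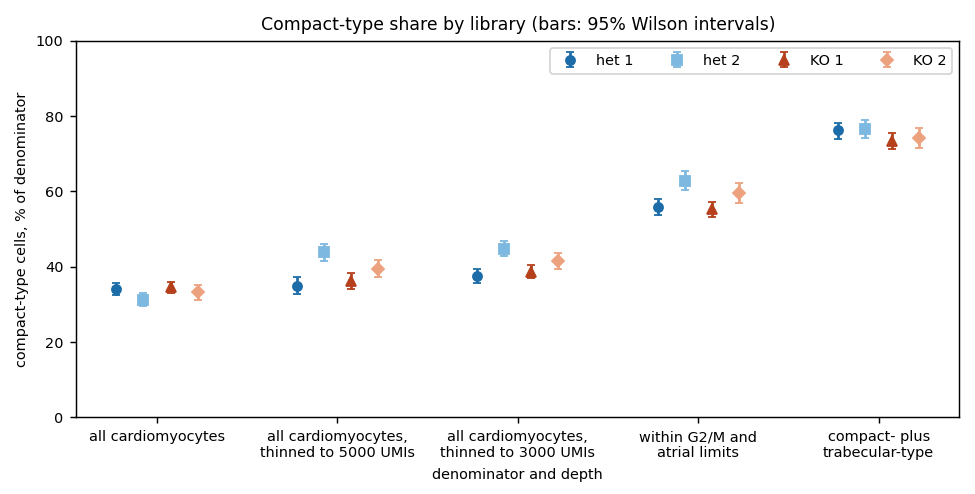
Compact-type cells as a percentage of 5 denominators (horizontal), 1 symbol per library, with 95% Wilson intervals. Over all cardiomyocytes the libraries span 31.3% to 34.5%, and over both types the het libraries (76.2% and 76.7%) lie above the KO libraries (73.4% and 74.2%).

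Gata4, on chromosome 14 of GRCm38 (63198922 to 63271692, per GENCODE M21), was not called different between the compact-type cells of the 2 groups. Its levels were 60.9, 53.5, 61.2 and 58.2 CPM, with KO 2 between the het libraries. The log2 difference was 0.06 (SE 0.168, adjusted p = 0.976 by edgeR's quasi-likelihood test with Benjamini-Hochberg adjustment), with -0.11 in the low and 0.23 in the high stratum. In endothelial reference cells, where the Cre acts, Gata4 stood at 143 and 121 CPM in het and 197 and 176 CPM in KO. The libraries read the 3′ ends of transcripts, and the relation of the floxed exons to those reads is not given in the sources used here, so these levels do not check the deletion. The matrices also hold the added sequences FloxGata4, with 0 to 2 UMIs in the compact-type cells of a library, and FloxGata4_ctrl, with 5 to 22. What these sequences cover is not given in the sources used here, and they were not used. EGFP, the mark of past Cre activity, stood at 75.8, 56.9, 61.9 and 34.6 CPM in compact-type cells against 1731 to 3233 CPM in endothelial reference cells. The red reporter sequence stood at 185, 302, 196 and 218 CPM in compact-type cells against 111 to 129 CPM in endothelial reference cells. The compact-type cells thus held far less EGFP and more of the red reporter than the endothelial reference cells in every library.

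No gene passed the adjusted threshold between KO and het compact-type cells. Of 12315 genes tested with edgeR's quasi-likelihood test, 0 (0.0%) had an adjusted p under 0.05, and the lowest adjusted p was 0.801. An unadjusted p under 0.05 was reached by 709 genes, of which 153 were higher and 556 lower in KO. DESeq2 and limma-voom also called 0 genes, with 348 and 679 at an unadjusted p under 0.05. The count depended on single libraries: it was 421 without het 1, 81 without het 2, 4 without KO 1 and 0 without KO 2, where the lone library is assumed to vary like the other group. With no filter on low counts it was 44.

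The genes of lowest unadjusted p moved with the strata. Of the 556 lower genes, 530 could be compared between strata and 502 of those (94.7%) were higher in the high stratum in all 4 libraries, as were 53.6% of all 10913 genes so compared. Their median log2 difference was -0.67 over all compact-type cells, -0.23 within the low stratum and -0.17 within the high stratum. Of 143 comparable genes among the 153 higher ones, 10 (6.99%) were higher in the high stratum, and their medians were 0.56 over all cells, 0.33 within the low and 0.22 within the high stratum. Within the low stratum 0 of 9601 genes passed (0.0%) by edgeR, DESeq2 or limma-voom, with 166, 36 and 159 at an unadjusted p under 0.05. Without het 1, het 2, KO 1 or KO 2 the count in the low stratum was 16, 6, 43 or 30. Within the high stratum 0 of 10668 passed (0.0%) by edgeR, with 375 at an unadjusted p under 0.05. Values within the strata are therefore given beside those of the genes named below, and none of these genes passed the adjusted threshold.

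Among the genes with the lowest p that were higher in KO were Bnip3, the mitophagy receptor, and Car2, carbonic anhydrase 2. Bnip3 stood at 358 and 334 CPM in het and 523 and 521 CPM in KO, a difference of 0.59 (SE 0.168), with 0.40 and 0.52 in the low and high strata. Car2 stood at 46.6 and 45.3 CPM in het and 65.5 and 73.8 CPM in KO, a difference of 0.60 (SE 0.168), with 0.55 and 0.13. For Bnip3 and Car2, both also higher in compact-type than trabecular-type cells, the libraries of a group lay close together. The choice by low p and non-overlapping libraries favours such genes, so this closeness is a description.

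Id2 stood at 66.4 and 67.8 CPM in het and 95.8 and 105 CPM in KO, a difference of 0.58 (SE 0.164), with 0.31 and 0.87 in the low and high strata. Mgarp, a mitochondrial protein induced by hypoxia, stood at 13.0 and 15.5 CPM in het and 23.5 and 23.3 CPM in KO, a difference of 0.71, with 0.53 and 0.74. A further 5 were genes of chromosome replication or segregation, of which 4 turned sign in the high stratum. H3c3 differed by 1.02 over all cells, 0.56 in the low stratum and -0.21 in the high stratum. Hist1h2ap, at 335 and 294 CPM in het and 408 and 895 CPM in KO, differed by 1.05, 0.74 and -0.42. H2ac8 differed by 0.61, 0.25 and -0.57, and the centromere gene Cenph by 0.63, 0.27 and -0.04. H3c6 differed by 0.66, with 0.22 and 0.05. Replication histone genes are near-identical copies, so their counts are uncertain where reads could be shared among them. The cap on mitotic UMIs in the rule acted at any depth, and its part in the values of these 5 genes was not tested.

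Among the 10 genes with the lowest p that were lower in KO, Gpx3, a secreted glutathione peroxidase, kept its size in the low stratum. It stood at 178 and 247 CPM in the het libraries and 109 and 126 CPM in the KO libraries, a log2 difference of -0.85 (SE 0.195), with -0.86 in the low and -0.45 in the high stratum. Mfap2, a microfibril protein of the matrix, stood at 34.5 and 28.4 CPM in het and 15.5 and 18.5 CPM in KO, a difference of -0.89, with -0.55 and -0.72. Serpinh1, the collagen chaperone, stood at 162 and 204 CPM in het and 106 and 117 CPM in KO, a difference of -0.72, with -0.45 and -0.20. The rule took only genes whose KO libraries both lay below both het libraries, or both above, which was so for 17.5% and 17.1% of all tested genes.

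The remaining 7 were mostly genes of the secretory pathway or the cell surface, and their values shrank within the strata. Lman2, a cargo receptor of the secretory pathway, differed by -0.82 over all cells and by -0.41 and -0.47 in the low and high strata. Pam, an enzyme that amidates peptides, differed by -0.90, -0.39 and -0.27, and Nucb1, a calcium-binding Golgi protein, by -0.84, -0.25 and -0.29. Pdia6, a disulfide isomerase of the endoplasmic reticulum, differed by -0.67, -0.14 and -0.15. Flnc, filamin C, differed by -0.74, -0.33 and -0.06, and Ddr1, a collagen receptor, by -0.75, 0.15 and -0.20. Tmem132a differed by -0.88 and by -0.41 in the high stratum, and had too few UMIs for the low stratum.

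**Figure D4:**
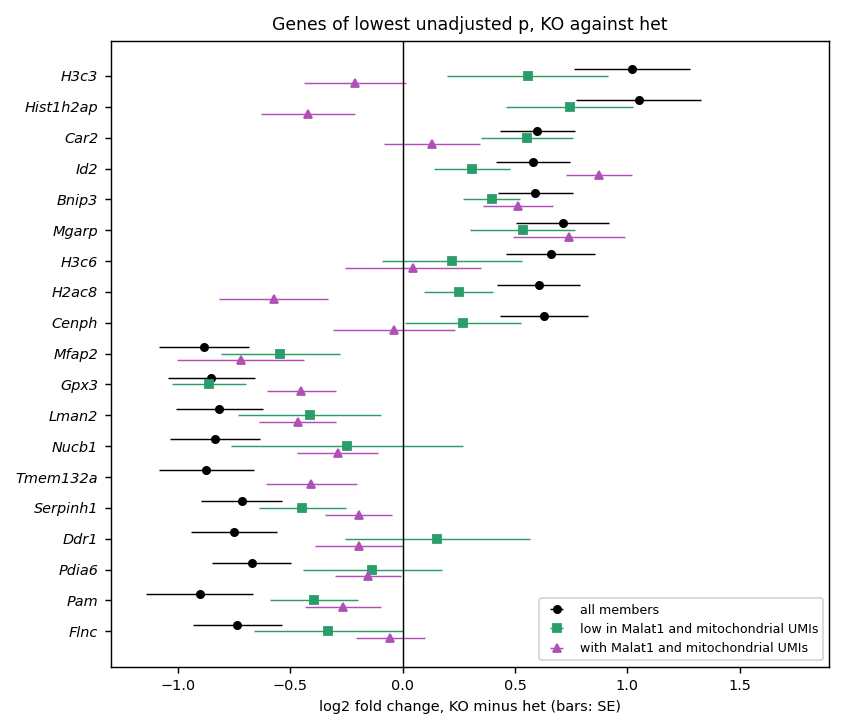
Log2 fold change of KO against het (horizontal, bars are SE) for genes of lowest unadjusted p (rows), over all compact-type cells (circles), the low stratum (squares) and the high stratum (triangles). Hist1h2ap lies at 1.05 over all cells and at -0.42 in the high stratum, while Gpx3 lies at -0.85 over all cells and -0.86 in the low stratum.

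None of the 5 marker genes of the label was called different between genotypes. The rule chose the cells of both groups on UMIs of Mb, Tnnt1, Tcea3 and Hey2, so the values of these genes are given as a description. Mb had a log2 difference of 0.34 (SE 0.170), with both KO libraries above both het libraries, as for 17.1% of all tested genes. Tcea3 had 0.35 (SE 0.297), and its level of 96.3, 163, 109 and 223 CPM varied as much within as between groups. Tnnt1 had 0.15 (SE 0.180), Hey2 0.06 (SE 0.187) and Myl2 0.15 (SE 0.171). In the low stratum these were 0.27 for Mb, 0.21 for Tcea3, 0.03 for Tnnt1, 0.18 for Hey2 and -0.06 for Myl2, and in the high stratum 0.06, 0.15, 0.06, 0.14 and -0.18.

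No member of any list passed the adjusted threshold between genotypes (0 called in each), so the lists are given by their counts and medians. These genotype counts keep genes of the rule where a list holds them. Mb is counted among the glycolysis and hypoxia genes, Hey2 and Irx3 among the cardiac factors, and Hey2 among the Notch genes. Energy genes lay mostly above 0. Of 57 oxidative phosphorylation genes tested, 50 were above 0 (median 0.20), where 49.6% of all tested genes were above 0. Cox7a1, a muscle subunit of cytochrome oxidase, stood at 224 and 264 CPM in het and 326 and 404 CPM in KO (0.58, SE 0.184), with 0.38 and 0.23 in the low and high strata, and Atp5l, a subunit of the ATP synthase, had 0.46, with 0.33 and 0.19. Within the low stratum 44 of 56 were above 0, with a median of 0.06, where 50.3% of all genes tested there were above 0 and 49.7% below, and in the high stratum 29 of 56, with a median of 0.00. Of 31 glycolysis and hypoxia genes, 25 were above 0 (median 0.22), with 22 of 29 in the low stratum (median 0.08) and 26 of 31 in the high stratum (median 0.20). Besides Bnip3, Ldha had 0.36 over all cells, with 0.14 and 0.25 in the low and high strata, and Pfkl, phosphofructokinase, 0.36, with 0.22 and 0.26.

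Matrix and calcium genes lay mostly below 0 over all cells and not within the strata. Of 32 matrix and adhesion genes, 30 were below 0 (median -0.52), where 50.4% of all tested genes were, but 14 of 25 lay above 0 in the low stratum (median 0.06) and 15 of 30 in the high stratum (median -0.03). Sparc, a matrix glycoprotein, stood at 238 and 370 CPM in het and 197 and 185 CPM in KO (-0.67, SE 0.209), with -0.33 in the low and -0.16 in the high stratum. Itgb1, integrin beta 1, had -0.58, with 0.12 and 0.07. Of 31 calcium and excitation genes, 25 were below 0 (median -0.29), and the medians were 0.03 and 0.17 in the low and high strata. Casq2, cardiac calsequestrin, had -0.68, with -0.17 and 0.02, and Calr, calreticulin, -0.62, with 0.19 and -0.12. Casq1 had -0.78 over all cells, -1.13 in the low stratum and -0.14 in the high stratum.

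Contractile and regulatory genes lay on both sides of 0 over all cells, and values of cell cycle genes were limited by the rule. Of 38 sarcomere genes 20 were above 0 (median 0.02), with medians of -0.07 and -0.04 in the low and high strata. The 38 include Tnnt2, Tnni1, Tnnc1, Actc1, Myl3, Myl4, Myl7, Myh7 and Tnnt1, which chose the cells, so these values are a description. Of 28 S phase genes 21 were above 0 (median 0.10), with 11 of 28 in the low stratum (median -0.02) and 1 of 28 in the high stratum (median -0.30). Of 28 G2/M genes 9 were above 0 (median -0.10). In the low stratum 13 of 28 were (median 0.00) and in the high stratum 0 of 28 (median -0.84). The rule capped the UMIs of Ube2c, Ccnb1 and Cdc20 per cell at any depth. Depth differed between libraries, with high-stratum medians of 3776 and 24104 UMIs in het and 10806 and 33012 UMIs in KO. The G2/M values and the high-stratum S phase values are therefore not read as a result. Of 43 cardiac transcription factors and cofactors 24 were above 0 (median 0.03), with medians of 0.05 and 0.13 in the low and high strata. Markers of other cells lay mostly below 0 over all cells: 15 of 15 endothelial markers (median -0.49), 11 of 11 mesenchymal markers (median -0.75), 9 of 9 macrophage markers (median -1.40), 7 of 9 epicardial markers (median -0.36) and 6 of 10 erythroid markers (median -0.04). In the low stratum 6 of 8 erythroid and 3 of 5 epicardial markers were above 0, with 1 of 7 endothelial, 3 of 8 mesenchymal and 0 of 4 macrophage markers. In the high stratum 0 of 7 endothelial (median -1.07), 1 of 7 mesenchymal (median -1.01) and 2 of 10 erythroid markers (median -0.89) were above 0. There 0 of 4 epicardial markers and the 1 macrophage marker tested were above 0. The summed levels are given above, and the part of RNA from other cells in the genotype values was not tested.

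**Figure D5:**
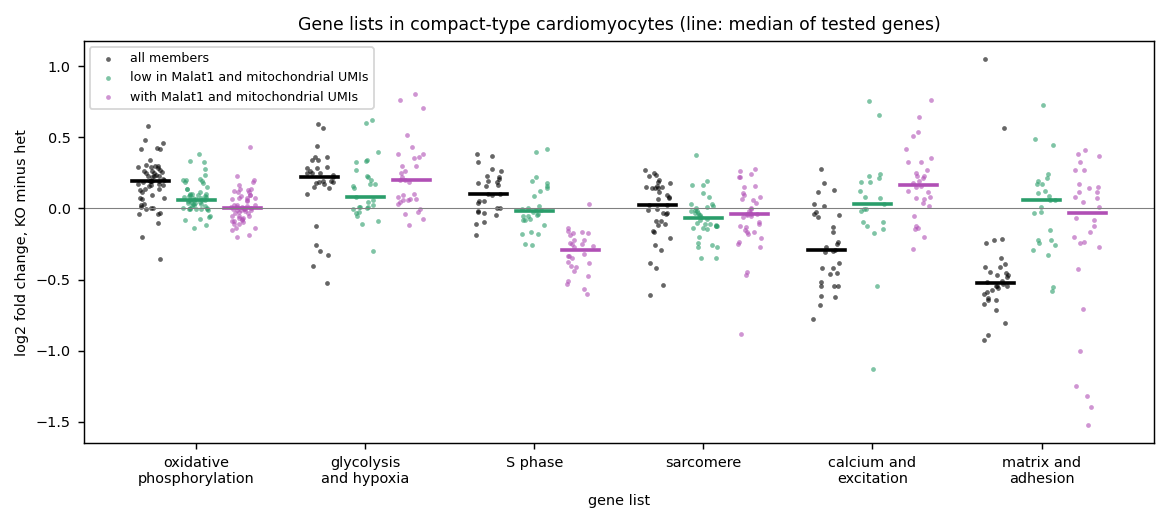
Log2 fold change of KO against het (vertical) for each tested gene (points) of 6 lists (horizontal), over all compact-type cells (black), the low stratum (green) and the high stratum (purple), with a line at the median. Matrix and adhesion genes have a median of -0.52 over all cells and 0.06 in the low stratum, and oxidative phosphorylation genes 0.20 and 0.06.

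Whether the genotype difference itself differed between compact-type and trabecular-type cells was tested with an interaction term in a fit blocked by library. Of 11907 genes tested by edgeR, 78 (0.655%) had an adjusted p under 0.05. The compact-type value was higher for 28 (0.235%) and lower for 50 (0.42%). The count was 130 without het 1, 14 without het 2, 264 without KO 1 and 38 without KO 2, and 8 within the low stratum. Of the 50 lower genes, 49 were higher in the high stratum in all 4 libraries, with a median of -0.75 over all cells and -0.26 in the low stratum, where 2 of 47 passed. Of the 28 higher genes, 0 were higher in the high stratum in all 4 libraries, and their median was 0.38 over all cells and 0.20 in the low stratum, where 2 passed.

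Nppb, the precursor of B-type natriuretic peptide and a neighbour of Nppa on chromosome 4 of GRCm38 (147985788 to 147987205, per GENCODE M21), had the largest difference among the named genes. In trabecular-type cells it stood at 137 and 47.0 CPM in the het libraries and 264 and 365 CPM in the KO libraries, a log2 difference of 1.77. In compact-type cells the levels were 94.7 and 41.3 CPM in het and 81.7 and 59.2 CPM in KO, with both KO libraries between the het libraries and a log2 difference of 0.06. The difference of the differences was -1.75 (SE 0.195, edgeR adjusted p = 7.08e-06). In the low stratum it was -1.07 (adjusted p = 0.00679). Its adjusted p was 0.00679 or lower in all 9 settings computed, with log2 values from -2.22 to -1.07. The compact-type log2 difference was 0.58 within the low and 0.16 within the high stratum. Over all cells the KO libraries thus lay above the het libraries in trabecular-type cells and between them in compact-type cells.

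Translation factors were among the other named genes of this comparison. Eef1a1, the elongation factor that carries aminoacyl-tRNA, differed by 0.44 (SE 0.068, adjusted p = 0.00119), with 0.28 in the low stratum (adjusted p = 0.00204, up to 0.938 over the settings). Tpt1, a translationally controlled protein, differed by 0.40 (SE 0.070, adjusted p = 0.00504), with 0.24 in the low stratum (adjusted p = 0.0171, up to 0.946 over the settings). Doc2g and Eef2, the factor that moves the ribosome along the message, differed by 0.64 and 0.41, with 0.46 (adjusted p = 0.529) and 0.29 (adjusted p = 0.338) in the low stratum. Malat1, which sets the strata, and Ttn had -0.83 and -0.78 over all cells and 0.05 and 0.00 in the low stratum. Hspa5, the chaperone of the endoplasmic reticulum, had -1.04 and -0.56, and Vldlr, a lipoprotein receptor, -1.12 and -0.24, and neither passed in the low stratum.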

How the data were processed

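Each deposited matrix gave whole-number UMI counts, unnormalised, for genes by barcodes, per the file headers. The headers name Cell Ranger 6.0.1, and the submitters' processing notes name mm10, Cell Ranger and Seurat. The labels name 3′ chemistry and, in another place, a different kit. The matrices held 55405 genes, of which 54349 matched GENCODE M21 identifiers, used here for GRCm38 positions. This annotation may not be the one the authors used.

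Cells were chosen by the UMI counts stated in the report and were not clustered. Doublets were scored with Scrublet in scanpy 1.11.5 (expected rate 0.1) and kept in the main values. UMI counts were summed per library and class. After filterByExpr (at least 10 counts, 15 in total) and TMM scaling, the 2 KO sums were set against the 2 het sums by edgeR's quasi-likelihood test (edgeR 4.0.16, R 4.3.3), and p-values were adjusted over all tested genes (Benjamini-Hochberg, 0.05). The interaction used the 8 sums of compact-type and trabecular-type cells with library as a block. CPM are UMI counts over the library's class total scaled by TMM, and differ slightly between fits over different sums. Levels of EGFP, the red reporter, Ddx3y, Xist and endothelial Gata4, and differences between strata, are CPM without TMM. Compact-type and trabecular-type levels were compared as log2 of CPM plus 1, without a test, for genes of at least 20 CPM in the higher class in every library. SE is that of the log2 difference, and SD is over libraries. Shares were compared by two-sided exact permutation tests over libraries.

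Named were Gata4, the 5 markers and, since no gene passed, the 10 genes per direction with the lowest unadjusted p among those with a mean of at least 20 CPM in 1 group and non-overlapping libraries. Further genes were the 15 per direction with the largest smallest difference between compact-type and trabecular-type cells, 5 per direction of the interaction, and up to 4 members per list by p or by level. Sex-linked, globin, mitochondrial, ribosomal protein and unnamed genes and the added sequences were not eligible by rank. Some genes that these rules or lists took are not reported here. The 35 gene lists and the members were chosen with earlier results of these data known. The test code was checked on simulated counts. Alternatives covered normalization (RLE), DESeq2 1.42.0, limma-voom (limma 3.58.1), count filters, other limits on the cells, thinning, the replicate number as a block and leaving out each library. The strata by Malat1 and mitochondrial UMIs, a 2% cardiomyocyte limit, and the fit over all cardiomyocytes within the limits were added after seeing the data. Replicate numbers were not taken as pairs.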

Additional observations from a re-analysis of the deposited data

Results flagged for a closer look

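The genotype difference of 78 genes differed between compact-type and trabecular-type cells by edgeR's interaction test at an adjusted p under 0.05. Of these, 9 are given here, chosen by the rule for that test. The value given is the log2 difference of KO against het in compact-type cells minus that in trabecular-type cells. It was 0.44 for Eef1a1, 0.40 for Tpt1, 0.64 for Doc2g and 0.41 for Eef2. It was -0.83 for Malat1, -1.75 for Nppb, -1.04 for Hspa5, -0.78 for Ttn and -1.12 for Vldlr. Nppb passed in all 9 settings computed, with values of -2.22 to -1.07. The other 8 genes failed to pass in at least 2 of the 9 settings, and Malat1 and Ttn had values of 0.05 and 0.00 in cells low in Malat1 and mitochondrial UMIs. The low share of those cells differed between the genotypes in compact-type cells, and its part in these 9 values beyond the low-stratum values given was not tested.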

How the results depend on the processing

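The genotype comparison of compact-type cells called 0 genes, and 0 with RLE, DESeq2, limma-voom, a minimum count of 50, at least 5 UMIs of the compact genes, only cells of 5000 to 20000 UMIs, no scored doublets and no mixed cells. It called 44 genes with no count filter, 5 with an 8% cardiomyocyte limit (2722 genes tested), 3 with cells chosen after thinning to 5000 UMIs, and 0 to 421 without 1 library. With the replicate number as a block it called 83, and 13 in the low stratum. The deviations of same-numbered libraries correlated at 0.35 over all cells and 0.47 in the low stratum, with only 2 numbers, which does not establish pairing. In the low stratum the count without 1 library was 6 to 43. The interaction count of 78 was 13 after thinning to 5000 UMIs, 14 to 264 without 1 library, and 8 in the low stratum.

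The share difference of 1.15 percentage points turned to -1.98 over cardiomyocytes within the limits, -2.64 over both types, -1.60 and -1.02 after thinning to 5000 and 3000 UMIs, -10.6 with the 8% limit (26 to 35 compact-type cells a library), and -0.899 in the high stratum. It was -0.251 to 2.55 without 1 library. The 32 and 42 genes at least 2-fold higher and lower in compact-type cells were 17 and 16 at a limit of 50 CPM. In the low stratum 21 genes were higher and 37 lower, of which 17 and 29 were among the 32 and 42.

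Single genes turned sign as follows. In the high stratum H3c3 had -0.21, Hist1h2ap -0.42, H2ac8 -0.57 and Cenph -0.040. With the 8% limit Hist1h2ap had -2.17, Id2 -0.41, H2ac8 -0.80 and Gata4 -0.10. Ddr1 had 0.15 and Gata4 -0.11 in the low stratum, and Gata4 -0.025 without het 2. The interaction of Malat1 was 0.054 and that of Ttn 0.00 (0.0038) in the low stratum. The cause of these changes was not tested, apart from the smaller number of genes or cells in the settings named. The strata, their limits and all values within them were chosen after seeing the data. With 2 libraries a group no p of a share can go below 0.333, and depth per cell limits detection of genes of few UMIs.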

Other observations

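Genes by which compact-type cells send and receive signals were tested between genotypes with the rest, and none passed edgeR's adjusted threshold. Of 37 paracrine ligands 28 were below 0 (median log2 difference -0.27), with medians of -0.09 in the low and 0.16 in the high stratum. Cxcl12, a chemokine of the coronary vessels, stood at 78.7 and 90.1 CPM in the het libraries and 56.8 and 70.7 CPM in the KO libraries, a difference of -0.41 (SE 0.176), with -0.48 in the low and -0.22 in the high stratum. Thbs4, a thrombospondin of the matrix, stood at 15.7 and 29.8 CPM in het and 13.6 and 14.1 CPM in KO, a difference of -0.73, with -0.88 and -0.11. For both genes the KO libraries lay below the het libraries, as they did for 17.5% of all tested genes. For Thbs4 the het libraries differed from each other by nearly 2-fold. Fstl1, a secreted follistatin-like protein, had -0.44 over all cells and 0.04 and 0.02 within the strata.

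Receptors and pathway genes were split. Of 14 Notch pathway genes tested 7 were above 0 and 7 below, with a median of 0.00 (0.12 in the low stratum). Of 10 neuregulin and ErbB genes 7 were below 0 (median -0.20, and -0.08 in both strata). Of 24 FGF and IGF signalling genes 13 were above 0 (median 0.06), and of 31 BMP and TGF-beta genes 21 were below 0 (median -0.23), with medians of 0.04 and 0.14 in the low and high strata. Genes of the immediate early and heat shock response, which can rise during dissociation, took 0.326%, 0.330%, 0.305% and 0.318% of compact-type UMIs (het 1, het 2, KO 1, KO 2).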
